A study of Homo sapiens with 9 samples.

Results

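The genes described here are 10 genes of megakaryocytes and platelets, namely PF4, PPBP, GP1BA, GP1BB, GP9, ITGA2B, ITGB3, TREML1, RGS18 and TUBB1. They were chosen by name, with earlier results of these data known. The question was whether a rise of TUBB1 after imatinib was shared by the other genes of the set. Of the 62700 genes of Gencode v44, 22384 held at least 1 read pair, and 6 of the 10 were among them. The cells were K562, an erythroleukaemia line from a patient with chronic myeloid leukaemia that carries the BCR-ABL1 fusion kinase in every group. The treated group received 1 µM imatinib, an inhibitor of that kinase, for 24 h, and the control group received the solvent DMSO. Each group had 2 TIF-Seq2 libraries, called here DMSO 1, DMSO 2, imatinib 1 and imatinib 2. TIF-Seq2 ligates an adaptor to the decapped 5′ end of an RNA, primes at the poly(A) tail and circularises the cDNA, so that each read pair joins the start and the poly(A) site of 1 molecule. The unit throughout is the read pair after removal of PCR duplicates by molecular identifiers, and a pair was counted for a gene when both ends lay on its strand within 1 kb of its body.

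Megakaryocytes are the bone marrow cells that shed platelets. They share a progenitor with red cells, and K562 cells can be pushed towards either lineage. Late megakaryocyte genes encode the granule chemokines, the adhesion receptors of the platelet surface and a microtubule system that builds the marginal band of the platelet. TUBB1 encodes beta-1 tubulin, the beta tubulin of that band.

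The libraries held 3695520, 5135829, 4263670 and 2263121 read pairs in the order given above. Imatinib 1 stood slightly apart, with 85.3% of 5′ ends within 200 bp of an annotated start against 87.8% to 88.7% in the other 3 libraries. It also had the most pairs whose 3′ end lies before 7 or more A in 10 genomic bases, which the study took to mark priming inside the RNA, at 9.80% against 7.82% to 8.27%. K562 identity was checked with markers. All 8 erythroid markers were found, with a summed level of 6094 to 7349 CPM (read pairs per 1000000 of the scaled library) in DMSO and 19609 to 19960 in imatinib. The annotated body of HBG2 spans most of that of HBE1, so pairs of HBE1 can count in both genes and more than 1 time in this sum. In the test described below, 6 of the 8 markers (75%) were called higher after imatinib, against 8.69% of all genes tested. Of 6 granulocyte and monocyte markers 3 were at 0, and LYZ accounted for nearly all pairs of the rest. Of 4 lymphocyte markers 2 were at 0.

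Of the 10 genes, TUBB1 alone passed the test. It rose 26.4-fold after imatinib. As the set was chosen with earlier results of these data known, the TUBB1 p-value is not independent support for that rise. GP1BB and ITGA2B were tested and missed the threshold, and the other 7 could not be tested. The edgeR quasi-likelihood test over 12135 genes, with Benjamini-Hochberg adjustment, took in genes that passed a filter on low counts, and the untested genes had 0 to 11 read pairs over the 4 libraries. Among all genes tested 14.8% were called at an adjusted p under 0.05, 8.69% as higher and 6.15% as lower after imatinib, so the 1 call among 3 tested genes is by itself no sign that the set moved. In bulk RNA, fewer cells with a transcript and less RNA per cell cannot be told apart.

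**Figure D1:**
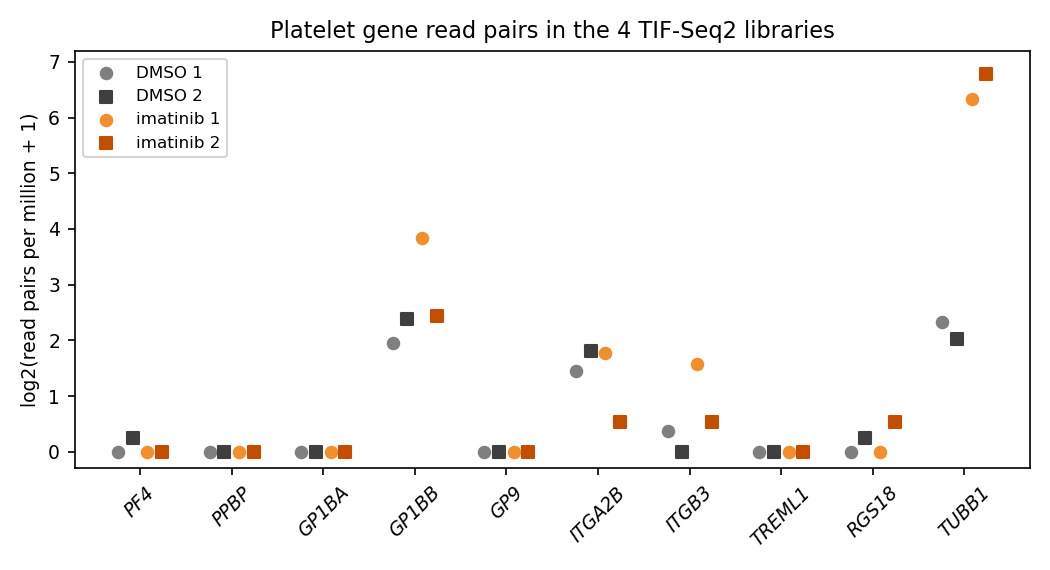
Level of each of the 10 genes in each library, as log2(CPM + 1), with 1 point for each library. TUBB1 lies above 6 in both imatinib libraries and below 2.5 in both DMSO libraries, while the other genes stay below 4 in all libraries.

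TUBB1 lies on chromosome 20 at chr20:59019429-59026654 (hg38, + strand), with 1 annotated transcript of 4 exons, the last of 2950 bp. The 180 bases around its start are shown because they hold the main cluster of measured starts. Capitals mark the main cluster of 5′ ends, at 59019395 to 59019451, and the annotated start is base 151 of the stretch chr20:59019279-59019458. The sequences are from the RefSeq promoter table on GRCh38.p14, in which 7 of the 10 genes were found, and PF4, GP1BA and ITGB3 were not matched. The GP1BB stretch, chr22:19723389-19723568, is given in the same frame with its own cluster of 5′ ends, 19723539 to 19723562, in capitals.
TUBB1: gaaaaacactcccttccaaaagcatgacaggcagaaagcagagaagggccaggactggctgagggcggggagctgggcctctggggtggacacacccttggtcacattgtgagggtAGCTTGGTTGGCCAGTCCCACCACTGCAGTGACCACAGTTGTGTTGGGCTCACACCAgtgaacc
GP1BB: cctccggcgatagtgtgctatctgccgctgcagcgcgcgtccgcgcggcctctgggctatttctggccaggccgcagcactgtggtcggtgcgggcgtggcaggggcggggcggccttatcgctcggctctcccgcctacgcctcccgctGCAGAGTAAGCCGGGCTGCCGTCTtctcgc

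Words bound by the factors that drive megakaryocyte genes were searched on both strands of each promoter, from 250 bases before to 50 bases after the start. The TUBB1 promoter held 1 match, to the RUNX word TGTGGT, read on the other strand from 3 bases before the start. That word occurs in 13.1% of the 27305 promoters of the table. It held no word of the other kinds searched. The GATA words were AGATAA and TGATAA, and the same words ending in G, and 25.5% of all promoters hold at least 1 of them. The ETS words, CCGGAA and CAGGAA, are in 41.6% of promoters, and the word TGANTCA of the NF-E2 and AP-1 factors is in 7.76%. The GP1BB promoter held 1 GATA word 133 bases before the start and 1 RUNX word 70 bases before it. The ITGA2B promoter held a GATA word 102 bases before the start and ETS words from 62 bases before and 2 bases after it. Promoters of genes with few or no read pairs held such words as well. PPBP had 2 GATA words, 1 ETS word and 1 RUNX word, and RGS18 had 1 GATA word, 1 ETS word and 2 RUNX words. GP9 had 1 RUNX word and TREML1 had 2 ETS words, so the RUNX match is not particular to TUBB1. These matches do not overlap each other, and a match of letters is not a measured binding site.

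TUBB1 had 14 read pairs in DMSO 1, 16 in DMSO 2, 358 in imatinib 1 and 244 in imatinib 2. Scaled to library size, these were 4.04 and 3.08 CPM in DMSO and 79.2 and 108 in imatinib. Both imatinib libraries were far above both DMSO libraries. Groups without overlap, in either direction, were found for 60.0% of all tested genes. The means were 3.56 ± 0.684 in DMSO and 93.8 ± 20.7 in imatinib (SD, n = 2 each). On the log2 scale TUBB1 rose by 4.72 ± 0.37 (SE), with an edgeR adjusted p of 8.95e-04. By size of rise TUBB1 was number 58 of the 12135 genes tested. Counting only pairs that start within 100 bp of the annotated start, a choice made after seeing the data, gave a log2 fold change of 4.72.

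The erythroid markers moved with TUBB1. HBZ, an embryonic alpha-like globin, rose by 2.33 on the log2 scale (SE 0.27, edgeR adjusted p = 0.00217). HBG1, HBG2, HBE1 and KLF1 were also called higher. GATA1 and TAL1 were not called, with log2 fold changes of -0.07 and 1.40. Their part in the TUBB1 result was not tested.

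The TUBB1 starts lay around the annotated start in both groups. Of all TUBB1 pairs, 24 of 30 (80.0%) in DMSO and 475 of 602 (78.9%) in imatinib started within 100 bp of the annotated start, with 95% Wilson intervals of 62.7% to 90.5% and 75.5% to 82.0%. These intervals cover counting error only. The median 5′ end lay 10 bp and 15 bp before the annotated start in DMSO 1 and DMSO 2 and 9 bp before it in each imatinib library. The starts used 50 positions from 54 bp before to 43 bp after the annotated start. The annotated base itself took 117 of 499 pairs (23.4%), and the bases 21 bp and 12 bp before it took 73 and 55. The DMSO curves rest on 11 and 13 pairs.

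**Figure D2:**
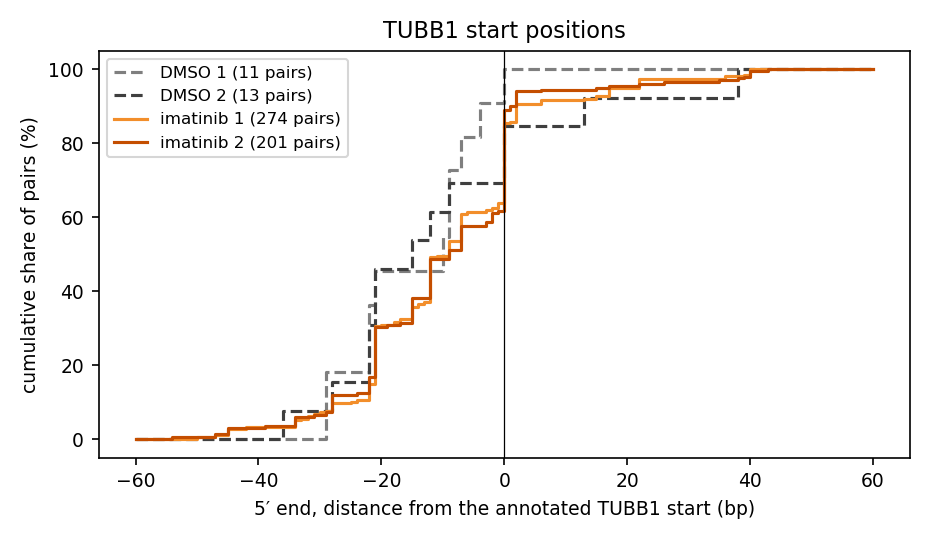
Cumulative share of TUBB1 5′ ends (%) against their distance from the annotated start (bp), for pairs starting within 100 bp of it, with 1 line for each library. Both imatinib lines run close together and step up at the annotated base, while the DMSO lines rest on 11 and 13 pairs.

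TUBB1 molecules ended mainly at 2 poly(A) sites 59 bp apart. The 30 bases up to each are shown because each holds a hexamer of the poly(A) signal, in capitals, which begins 20 bases before the end of the nearer stretch and 24 before the end of the farther one, counting the last base. They are chr20:59026564-59026593 and chr20:59026623-59026652 of hg38, + strand, both in exon 4, and the positions of poly(A) sites are uncertain by 1 base.
TUBB1 nearer site: aatagtaatcATTAAActacaaagtaattc
TUBB1 farther site: agactaAATAAAttccttttcttgaagcct

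The cluster of 3′ ends at the nearer site, 59026592 to 59026606, took 8, 13, 246 and 204 pairs in DMSO 1, DMSO 2, imatinib 1 and imatinib 2. The cluster at the farther site, 59026646 to 59026653, lies at the annotated end and took 3, 0, 45 and 13 pairs. Among pairs that ran from the start to either cluster, the farther site took 3 of 9, 0 of 10, 37 of 212 (17.5%) and 13 of 178 (7.30%). The DMSO values lie on both sides of the imatinib values, so no shift between the sites was detectable at this depth.

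A TIF is a cluster of starts joined to a cluster of poly(A) sites by at least 4 read pairs over the 4 libraries, with 3′ ends before 7 or more A left out. Of 87989 TIFs, 17 lay in the windows of the 10 genes, 12 of them in TUBB1 and 5 in GP1BB. The other 8 genes had none. The main TUBB1 TIF, from the main start cluster to the nearer site, held 5, 7, 157 and 150 pairs. It rose by 5.27 on the log2 scale (SE 0.51, edgeR adjusted p = 0.00138). The TIF from the same starts to the farther site held 2, 0, 35 and 13 pairs and rose by 4.83 (SE 0.84, edgeR adjusted p = 0.00911). These were the only 2 of the 17 with enough pairs to test, and 6.40% of the 18425 TIFs tested were called higher. The difference between the rises of these isoforms was not tested.

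The other TUBB1 TIFs were minor. Single start clusters 45 bp before and 40 bp after the annotated start joined the nearer site with 13 and 9 pairs in all. From the main starts, 4 TIFs ended earlier in exon 4, at 502, 565, 1052 and 1604 bp before the annotated end, with 14, 11, 8 and 4 pairs. One ended in intron 1, 1308 bp after the start, with 1, 1, 8 and 0 pairs. Another 3 started inside exon 4 and ended at the nearer site, with 4, 4 and 8 pairs. In all, 20.6% of TUBB1 pairs started in the last exon, and the share ranged from 17.6% to 22.6% over the libraries. No pair with 7 or more A after its 3′ end was seen among the 30 DMSO pairs, which allows a share of up to 11.4% (Wilson), and 30 of 602 imatinib pairs (4.98%) had them.

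**Figure D3:**
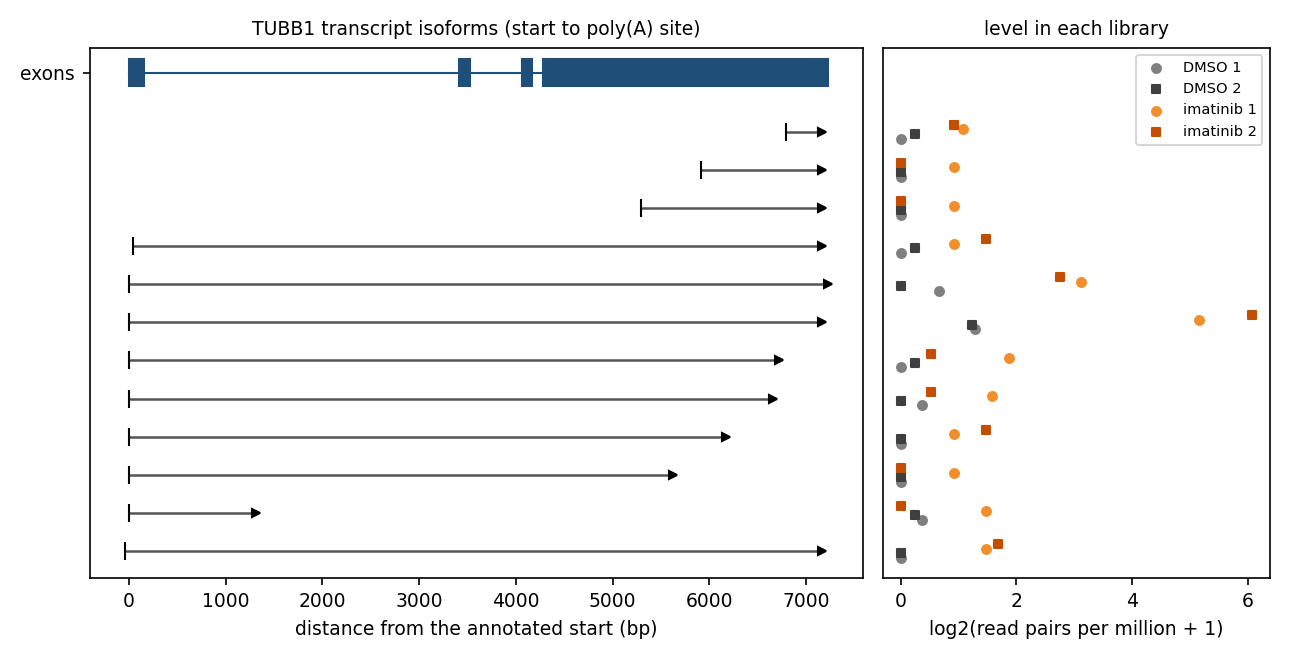
Left, the 12 TUBB1 TIFs drawn from start (bar) to poly(A) site (arrow) against the distance from the annotated start (bp), under the annotated exons (boxes). Right, the level of each TIF in each library as log2(CPM + 1), where the TIF from the main start to the nearer site lies above 5 in both imatinib libraries and below 1.5 in both DMSO libraries.

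Of 6 genes within 50 kb of TUBB1, 3 had enough pairs to test and none was called, a count that 14.8% over all genes also gives for so few. NELFCD, a subunit of the negative elongation factor, had a log2 fold change of 0.15 (SE 0.24, edgeR adjusted p = 0.714). ATP5F1E, the epsilon subunit of the mitochondrial ATP synthase, runs on the opposite strand and overlaps the TUBB1 end by 1180 bp. Its log2 fold change was 0.27 (SE 0.25, edgeR adjusted p = 0.489). PRELID3B had a log2 fold change of -0.56 (SE 0.32, edgeR adjusted p = 0.261). CTSZ and the lncRNA genes ENSG00000285091 and ENSG00000289837 had 7, 24 and 1 pairs in all and were not tested.

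The genes with a pattern most like that of TUBB1 were sought over the 4 libraries, by the Euclidean distance between mean-centred values of log2(CPM + 1). The nearest 5 were MYT1 at 0.70, DUSP21 at 0.74, ALAS2 at 0.77, LINC02772 at 0.81 and FAIM2 at 0.81. ALAS2, the erythroid enzyme that opens haem synthesis, had 27.2 and 30.6 CPM in DMSO and 464 and 400.1 in imatinib. None of these 5 belongs to the 10 genes or to the wider platelet list used below. This is not a separate result, as the distance uses the same 4 values as the fold change. The log2 fold changes of the 5 ran from 3.90 to 6.49, and the highest called on the wider list was 2.38.

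The granule chemokines were nearly absent. PF4, platelet factor 4, had 1 pair, in DMSO 2. PPBP, the precursor of several platelet chemokines, had none in any library. A count of 0 in a library allows up to 3 pairs, which is 0.577 to 1.33 CPM over the 4 libraries, so any change of PF4 or PPBP below that level was not detectable at this depth.

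The GPIb-IX complex, the platelet receptor for von Willebrand factor, was seen only through GP1BB. GP1BA, its alpha chain, and GP9 had no pairs in any library. GP1BB, its beta chain, had 10, 22, 60 and 10 pairs in DMSO 1, DMSO 2, imatinib 1 and imatinib 2, or 2.89, 4.23, 13.3 and 4.45 CPM. Imatinib 1 was high and imatinib 2 lay next to DMSO 2, so the groups were separated only by a narrow gap. The log2 fold change was 1.36 ± 0.54 (SE), and the edgeR adjusted p of 0.123 missed the threshold, with an unadjusted p of 0.0322. The value turned on the imatinib libraries: without imatinib 2 it was 1.83, and without imatinib 1 it was 0.30. It also turned on the counting window: with a 5 kb margin it was 0.39 (edgeR adjusted p = 0.419). With a 200 bp margin GP1BB fell under the filter and gave no value.

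GP1BB lies at chr22:19723539-19724771 (+ strand), downstream of the septin gene SEPTIN5 on the same strand and overlapping its annotated end. Many of the pairs counted for GP1BB ended before it, inside SEPTIN5. The 3′ end used most before GP1BB is 19723319, which lies 220 bp before the GP1BB start. It took 302, 396, 381 and 230 pairs in all. Of the pairs counted for GP1BB, 8, 14, 19 and 7 started upstream and ended at that site. Pairs that ran from the GP1BB start to the GP1BB end numbered 0, 7, 26 and 3. A further 2, 1, 15 and 0 started inside GP1BB and ended at its end.

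Pairs with both ends in GP1BB itself thus came to 1.54 CPM in DMSO 2 and 1.33 in imatinib 2, against 0.578 in DMSO 1 and 9.07 in imatinib 1. The groups overlap on this count, and it is high in imatinib 1 alone. Pairs that joined a start over 100 bp upstream to the GP1BB end numbered 2, 1, 1 and 0. An annotated gene on the same strand, ENSG00000284874, also runs from 19717220, inside SEPTIN5, to 19724772, at the GP1BB end. Its log2 fold change was 0.20 (SE 0.26, edgeR adjusted p = 0.646). SEPTIN5 itself was not called, at a log2 fold change of 0.24 (SE 0.26, edgeR adjusted p = 0.577). The poly(A) sites are shown because they separate these molecules: 30 bases up to 19724771 for GP1BB, with the hexamer in capitals, and up to 19723319 for SEPTIN5, where neither AATAAA nor ATTAAA occurs in 50 bases.
GP1BB site: tctggtgctgAATAAAcccttctgatctgg
SEPTIN5 site: ggtgacaggagaacaatgttggtgaacgtc

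GP1BB had 5 TIFs. Those from 19723539 to 19723546 and from 19723559 to 19723562 both ran to 19724771, with 0, 5, 11 and 2 and with 0, 2, 8 and 1 pairs. The other 3 ended at 19723319 and held 4 pairs each. None had enough pairs to test.

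**Figure D4:**
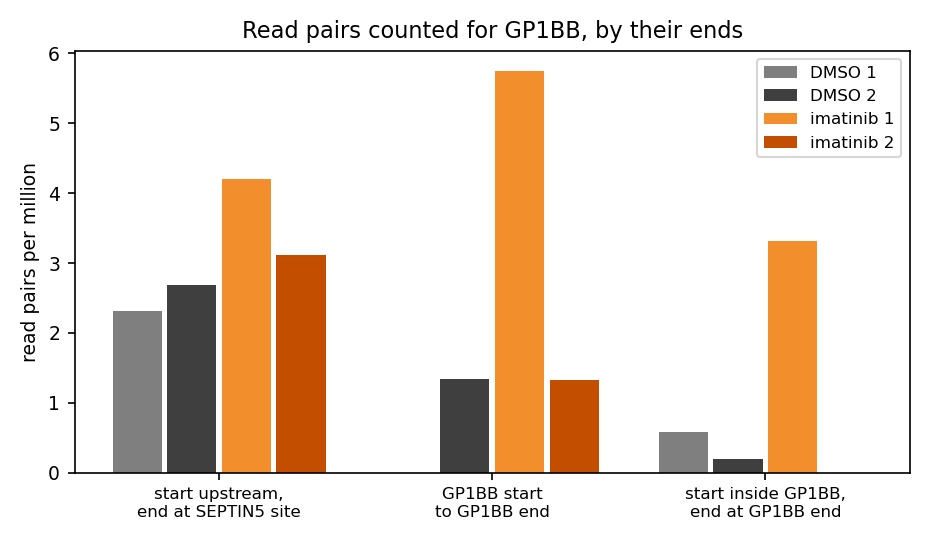
CPM of the read pairs counted for GP1BB in each library, as bars grouped by where the pairs start and end. Pairs that start and end in GP1BB are high in imatinib 1 alone, while pairs that end at the SEPTIN5 site are spread over all 4 libraries.

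The fibrinogen receptor of platelets is the integrin pair of ITGA2B and ITGB3. ITGA2B, the alpha-IIb chain, had 6, 13, 11 and 1 pairs, or 1.73, 2.50, 2.43 and 0.445 CPM. The groups overlapped, and imatinib 2 was lowest with 1 pair. The log2 fold change was -0.35 ± 0.67 (SE, edgeR adjusted p = 0.762), and it turned to 0.14 without imatinib 2. ITGB3, the beta-3 chain, had 1, 0, 9 and 1 pairs and was not tested. Its pooled ratio of imatinib to DMSO was 12.8, with an exact 95% counting interval of 1.82 to 555 that leaves out the spread between libraries.

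No ITGA2B pair joined the start of the longest transcript, 44389649 on chromosome 17 (- strand), to its annotated end. The 12 pairs that started within 200 bp of that start all came from DMSO, 4 from DMSO 1 and 8 from DMSO 2, and all ended in intron 1, at 44388221 to 44388837. In 11 of the 12 the 3′ end lay before fewer than 7 A. Imatinib 1 and imatinib 2 had 0 such pairs of 11 and of 1. Starts within 200 bp of the annotated internal start of ITGA2B-210 were found in 1, 1, 7 and 1 pairs, of which 1, 0, 3 and 0 reached the annotated end. The difference between the groups in where pairs start was not tested. As shares, the starts at the first exon came to 63.2% of the DMSO pairs (95% Wilson interval 41.0% to 80.9%) and 0 of the 12 imatinib pairs (up to 24.2%), for counting error only. Of the 31 ITGA2B pairs, 12 had 7 or more A after the 3′ end, 5 of 19 in DMSO and 7 of 12 in imatinib.

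The ITGB3 pairs were partial too. Of the 9 in imatinib 1, 6 started in the last exon, ended at the annotated end and lay before 7 or more A. No pair ran from the annotated start to the annotated end. Imatinib 1 is also the library with the highest share of such A-rich ends and the lowest share of annotated starts, and the part of the latter in the ITGB3 and GP1BB counts was not tested. With A-rich ends and pairs outside the distance limits left out, GP1BB had a log2 fold change of 1.33 (SE 0.56, edgeR adjusted p = 0.142).

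TREML1, a receptor of the alpha granule membrane, had no pairs. RGS18, a regulator of G protein signalling found in platelets, had 1 pair in DMSO 2 and 1 in imatinib 2. Both ran over the whole gene, from 192158462 to 192185779 and from 192158478 to 192185771 on chromosome 1.

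A wider list of 92 other genes of megakaryocytes and platelets, grouped by role, was examined in the same fit. Of these, 16 had no pairs in any library, among them GP5, THBS1, F13A1 and the transcription factor FLI1 (these 4 are named after their values were seen). Of the 53 tested, 14 changed, 4 higher and 10 lower. That is 26.4% of those tested against 14.8% of all genes, 7.55% against 8.69% for higher and 18.9% against 6.15% for lower. The median log2 fold change was -0.18, and it was 0.03 over all genes tested. The highest called log2 fold change of the 53 was 2.38. The count of called genes moved when single libraries were left out, and so did the count over all genes.

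Among transcription factors, 13 of 15 were tested, 2 rose and 2 fell. Each is 15.4% of those tested, against 8.69% higher and 6.15% lower over all genes. The shares by role, here and below, rest on few genes. GFI1B, a repressor needed in both the erythroid and the megakaryocyte lineage, rose from 400.1 and 333 CPM in DMSO to 1215 and 970.4 in imatinib, a log2 fold change of 1.58 (SE 0.26, edgeR adjusted p = 0.00683). LMO2, a bridging protein of the GATA1 and TAL1 complex, rose by 1.38 (SE 0.34, edgeR adjusted p = 0.0283). GATA2, a factor of progenitors and early megakaryocytes, fell from 82.0 and 104.8 CPM to 13.7 and 21.8, a log2 fold change of -2.42 (SE 0.34, edgeR adjusted p = 0.00395). MEF2C fell by 1.34 on the log2 scale (SE 0.29, edgeR adjusted p = 0.0167). NFE2, a known activator of TUBB1, had a log2 fold change of 0.67 (SE 0.27, edgeR adjusted p = 0.131), and RUNX1 one of -0.05 (SE 0.36, edgeR adjusted p = 0.936). NFE2 and RUNX1 are named after their values were seen. Without DMSO 2 the calls of GFI1B, MEF2C and LMO2 were lost (edgeR adjusted p = 0.0581, 0.128 and 0.144), and that of LMO2 also without DMSO 1 (0.0744) and with the replicate block (0.0541).

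Of 23 surface receptors, 7 were tested and 2 fell. That is 28.6% of those tested, against 6.15% over all genes. P2RX1, an ATP-gated channel, had 30, 42, 4 and 5 pairs and fell by 2.57 on the log2 scale (SE 0.53, edgeR adjusted p = 0.0150), with a log2 fold change of -1.88 without imatinib 1 and -3.22 without imatinib 2. GP6, the collagen receptor, had 81, 125, 31 and 26 pairs and fell by 1.41 (SE 0.36, edgeR adjusted p = 0.0327). Of 20 genes of granule content and formation, 9 were tested and only ANGPT1, a secreted angiopoietin, changed, with a log2 fold change of -1.31 (SE 0.29, edgeR adjusted p = 0.0187). That is 11.1% of those tested, against 6.15% called lower over all genes. The call of ANGPT1 was lost without DMSO 2 (edgeR adjusted p = 0.128). That of GP6 was lost without DMSO 1, DMSO 2 or imatinib 1 (edgeR adjusted p = 0.0664, 0.104 and 0.0728) and with the replicate block (0.0573).

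TUBB1 is itself a gene of the cytoskeleton, and of 16 genes of that role on the wider list 13 were tested and 2 fell. These 2 are 15.4% of those tested, against 6.15% called lower over all genes. None of the 13 was called higher, a count near what 8.69% over all genes gives for so few. TPM4, a tropomyosin, had 114 and 143 CPM in DMSO and 25.4 and 40.9 in imatinib, a log2 fold change of -1.97 (SE 0.33, edgeR adjusted p = 0.00691). ZYX, the focal adhesion protein zyxin, fell by 1.28 on the log2 scale (SE 0.36, edgeR adjusted p = 0.0461), a call lost without DMSO 2 at a log2 fold change of -0.76 (edgeR adjusted p = 0.443) and with the replicate block (edgeR adjusted p = 0.0695).

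Of 18 genes of signalling and enzymes, 11 were tested, 2 rose and 3 fell. The rises are 18.2% and the falls 27.3% of those tested, against 8.69% and 6.15% over all genes. PTGS1, the cyclooxygenase of platelets, had 4, 24, 76 and 26 pairs and rose by 2.22 on the log2 scale (SE 0.54, edgeR adjusted p = 0.0270). ALOX12, the platelet 12-lipoxygenase, had 1, 7, 16 and 15 pairs and rose by 2.38 (SE 0.67, edgeR adjusted p = 0.0454), but it had a log2 fold change of -0.36 (edgeR adjusted p = 0.467) when pairs within 5 kb were counted. LCP2, the adaptor SLP-76, had 85, 173, 6 and 8 pairs and fell by 3.72 on the log2 scale, the deepest fall of the list (SE 0.48, edgeR adjusted p = 0.00320), with a log2 fold change of -3.01 without imatinib 1 and -4.45 without imatinib 2. RAP1B, a small GTPase, and ARHGAP6 had log2 fold changes of -1.03 and -1.24, with edgeR adjusted p of 0.0281 and 0.0205. Without DMSO 1 the calls of PTGS1, ALOX12, RAP1B and ARHGAP6 were lost (edgeR adjusted p = 0.0893, 0.211, 0.213 and 0.0677). The log2 fold change of PTGS1 was 1.61 without DMSO 1 and 3.58 without DMSO 2, and that of ALOX12 was 1.81 and 3.91. The call of ALOX12 was also lost without imatinib 2, at a log2 fold change of 1.91. It was lost as well with DESeq2 (DESeq2 adjusted p = 0.142) and with a 200 bp margin (edgeR adjusted p = 0.0618). The calls of RAP1B and ARHGAP6 were also lost without DMSO 2 (0.136 and 0.133) and with the replicate block (0.105 and 0.0590).

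**Figure D5:**
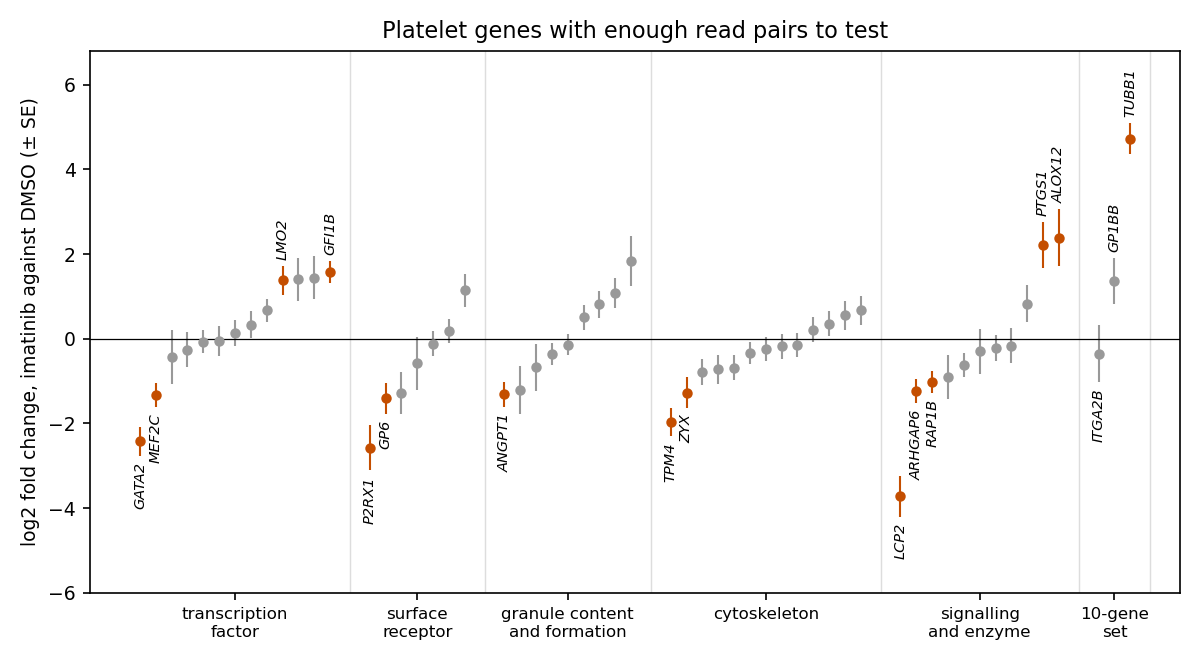
Log2 fold change, imatinib against DMSO, of the 53 tested genes of the wider list by role and of the 3 tested genes of the 10-gene set, with 1 point for each gene and bars for ± SE. Genes with an adjusted p under 0.05 are coloured and named, and TUBB1 at 4.72 lies above every other point.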

How the data were processed

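K562 RNA was profiled by TIF-Seq2 in 2 libraries per group. Per the study's methods, the authors trimmed reads with cutadapt (v1.16), aligned both ends to hg38 with STAR (v2.5.3a), kept uniquely mapped pairs on 1 chromosome and then removed PCR duplicates by molecular identifiers. The deposited tables give the count of read pairs for each combination of 5′ and 3′ position. Coordinates were treated as 1-based: 5′ ends matched annotated starts best without a shift, while 3′ ends matched annotated ends best 1 base farther downstream, on both strands. The 3′T-fill samples were not analysed here, and of the 44 genes with targeted long-read models none overlaps the 10 genes.

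Pairs were summed per Gencode v44 gene (both ends on its strand, 1 kb margin), so overlapping genes can share pairs. Genes were tested with edgeR (4.0.16, R 4.3.3), robust quasi-likelihood, TMM and filterByExpr, and called at an adjusted p under 0.05. Levels are CPM on the TMM-scaled library size. Tags with at least 2 pairs were joined within 10 bp into clusters, a simpler rule than that of the authors, and TIFs spanned 300 bp to 2 Mb. Shares have Wilson intervals (scipy 1.17.1). On simulated counts for 12135 genes the test recovered 83.5% of 200 genes changed 4-fold, with 5.65% false calls. The simulation gave all genes and both groups the same dispersion, so these rates need not hold for the measured libraries.

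The 10 genes and the lists were chosen with earlier results of these data known. Named are all 10 genes, the genes called from the wider list, all genes within 50 kb of a called member, the 5 genes most like TUBB1 and all TIFs of the 10 genes. Alternatives were DESeq2 (1.42.0), RLE or no scaling, no filter, a replicate block, each library left out, a further limit of 1.5 on the log2 fold change, margins of 200 bp and 5 kb, filtered pairs, 1 gene per pair, other TIF rules and, added after seeing the data, pairs from annotated starts. The study calls its samples biological replicates, but p-values measure only the spread between 2 libraries a group. Some results are not reported here.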

Additional observations from a re-analysis of the deposited data

How the results depend on the processing

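TUBB1 stayed called under all alternatives, with log2 fold changes of 4.46 to 4.96. TUBB1 was the 1 gene of the 10 called, and leaving out single libraries gave 1 to 2, the second being GP1BB without imatinib 2. ITGA2B had -0.62 without DMSO 1 and 0.14 without imatinib 2 and fell under the filter without either of the others, and ALOX12 turned to -0.36 with a 5 kb margin. With pairs from annotated starts alone, GP1BB and ITGA2B fell under the filter and gave no value. The wider list kept 4 of its 14 calls under all alternatives (GATA2, P2RX1, TPM4 and LCP2). It had 7 called genes with the further limit on the fold change and 7 to 22 without single libraries. Over all genes, 1800 were called (1054 higher, 746 lower), against 1426 with DESeq2 (692 higher, 734 lower), 1180 with the limit on the fold change, 2736 without the filter and 820 (without DMSO 2) to 3955 (without imatinib 2) without single libraries. Of TIFs, 1958 were called, against 1154 with DESeq2, 3055 without the filter and 766 to 4093 without single libraries. The cause of these differences was not tested. The 10 genes held 17 TIFs, and 15 to 20 under other TIF rules.

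With the replicate block, 1148 genes, 9 genes of the wider list and 433 TIFs were called, and TUBB1 rose by 4.71. The labels say only that libraries share a number, and the deviations of same-numbered libraries correlated at -0.25. With 2 libraries a group and 7 of the 10 genes under the filter, the depth limits what can be said of these 7. Of these, 4 had no pairs, and the rest were not called without the filter and had no adjusted p with DESeq2.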
